A study of Mus musculus with 9 samples.

Results

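The Ugt1a locus genes are the 7 measured genes Ugt1a1, Ugt1a2, Ugt1a5, Ugt1a6a, Ugt1a6b, Ugt1a9 and Ugt1a10, out of 55335 genes in the table. They were chosen by locus, matched from symbol to Ensembl identifier, and the locus was selected on values of these same libraries: Ugt1a9 had lower FPKM after frozen transfer (FET) than after fresh transfer (IVF). The members' FET against IVF values are therefore given as a description, and nothing is read from a test of them. RNA was measured in the livers of 9 male B6D2F2 mice aged 20 weeks, fed chow and fasted for 4 h, with 3 mice in each of 3 conception groups. NC mice (NC-chow in the study) were conceived naturally, IVF mice came from fertilization in vitro with fresh transfer of 2-cell embryos to ICR recipients, and FET mice came from embryos of the same origin that were frozen and thawed before transfer. The labels number single mice but do not give their litters. The design asks how hepatic expression differs with the way of conception.

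UDP-glucuronosyltransferases sit in the endoplasmic reticulum and join glucuronic acid to bilirubin, hormones and foreign compounds, which makes them soluble enough to leave in bile or urine. The genes of the UGT1A locus each have a promoter and a first exon of their own, spliced onto a common set of downstream exons. The first exon encodes the portion of the enzyme that binds the substrate, and the common exons encode the part that binds UDP-glucuronic acid and the membrane anchor.

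In the GENCODE vM21 annotation (GRCm38) all 7 members lay on the plus strand of chromosome 1. From the first to the last start, Ugt1a10 (ENSMUSG00000090165) spanned chr1:88055388-88219004, Ugt1a9 (ENSMUSG00000090175) chr1:88070800-88218997, and Ugt1a6b (ENSMUSG00000090145) chr1:88103252-88219003. Ugt1a6a (ENSMUSG00000054545) followed at chr1:88134809-88218997 and Ugt1a5 (ENSMUSG00000089943) at chr1:88166012-88218997. Ugt1a2 (ENSMUSG00000090171) spanned chr1:88200601-88218997, and Ugt1a1 (ENSMUSG00000089960), nearest to the common exons, chr1:88211959-88218997. The 3 exons with the same ends in all 7 members, 440 bases in sum, lay at chr1:88215044-88215175, chr1:88215795-88215882 and chr1:88216138-88216357, and the last exon started at 88218127 in every member. Between 57.1% and 59.9% of the length of a member's transcript was held in common in this way.

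The junction between the own and the common part is shown for the 7 members because only fragments on the left side of it, or across it, tell the members apart. The sequences are read 5′ to 3′ from the GENCODE vM21 transcripts, with the 30 bases of the common exon in capitals.
Ugt1a1: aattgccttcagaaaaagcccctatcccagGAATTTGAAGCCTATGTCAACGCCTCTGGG
Ugt1a2: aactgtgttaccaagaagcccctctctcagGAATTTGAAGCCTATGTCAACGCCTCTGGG
Ugt1a5: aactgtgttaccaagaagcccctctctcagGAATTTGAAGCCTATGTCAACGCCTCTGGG
Ugt1a6a: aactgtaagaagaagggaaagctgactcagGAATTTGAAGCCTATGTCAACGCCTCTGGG
Ugt1a6b: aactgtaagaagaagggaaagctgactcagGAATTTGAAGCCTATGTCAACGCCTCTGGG
Ugt1a9: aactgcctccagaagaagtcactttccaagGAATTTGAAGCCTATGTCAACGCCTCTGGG
Ugt1a10: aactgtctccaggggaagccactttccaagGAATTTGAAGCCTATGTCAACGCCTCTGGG
The capitals held 1 sequence in all 7 members. On the left side Ugt1a2 and Ugt1a5 were the same base for base over these 30 bases, as were Ugt1a6a and Ugt1a6b. Over the last 800 bases of the own part, Ugt1a6a and Ugt1a6b were 96.8% identical, Ugt1a9 and Ugt1a10 92.4%, and Ugt1a2 and Ugt1a5 82.2%, whereas every other pair lay between 55.3% and 60.1%. Stretches of 50 bases found in both own parts were present only in those 3 pairs, 511 of 937 such stretches for Ugt1a6a against Ugt1a6b, 51 of 830 for Ugt1a9 against Ugt1a10 and 67 of 851 for Ugt1a2 against Ugt1a5. The division of fragments among the members is therefore uncertain, most of all within these pairs, and the summed FPKM of the locus depends on it less.

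**Figure D1:**
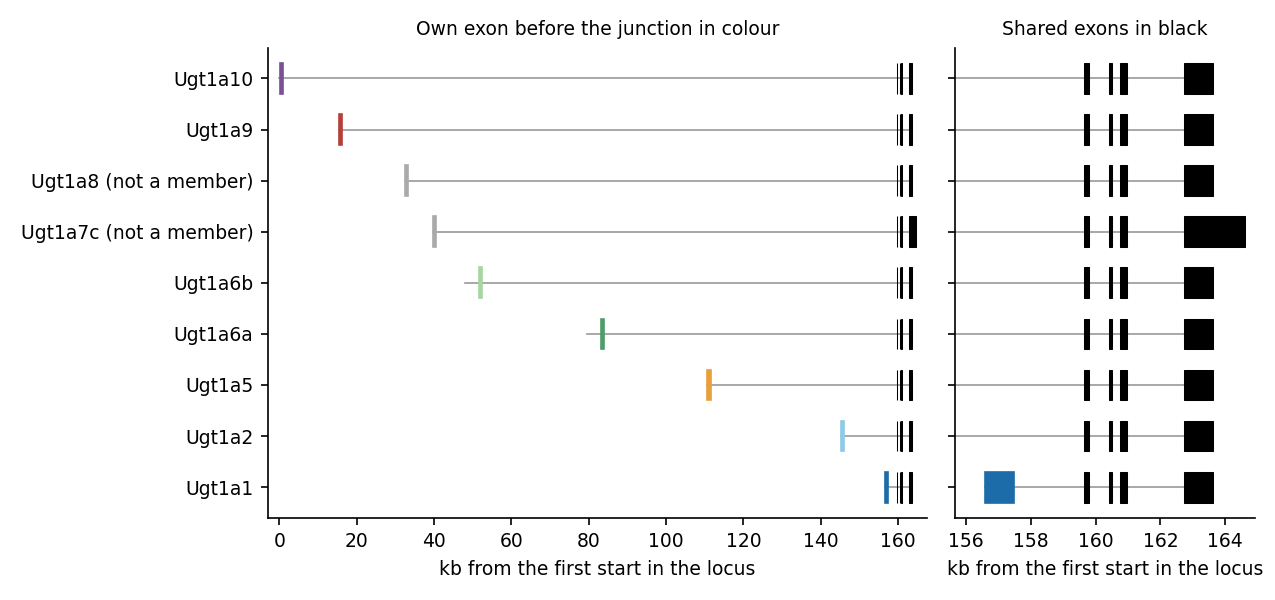
The Ugt1a genes of the locus (GRCm38) against distance in kb from the first start, with the own exon before the junction in colour and the common exons in black; the grey line runs from gene start to gene end. The right panel enlarges the 3′ end, where the 3 inner exons line up in every gene and only the length of the last exon differs.

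The table gives FPKM, fragments per kilobase of transcript scaled to the mapped fragments, which corrects a gene's level for its length. Low values fell on steps from which about 6600000, 11960000 and 13350000 mapped fragments were estimated for the NC mice 1, 5 and 6, 8430000, 4500000 and 3890000 for the IVF mice 2, 3 and 4, and 2020000, 2810000 and 2940000 for the FET mice 2, 3 and 4. Every FET library was shallower than every library of the other groups. Nuclear protein-coding genes took 10.1% to 18.1% of the summed FPKM in NC mice, 4.36% to 29.3% in IVF mice and 4.41% to 13.7% in FET mice. The 10 hepatocyte markers were all above the filter, with a summed level of 20593 to 35396 FPKM in NC, 5829 to 56342 in IVF and 8038 to 27946 in FET mice. In bulk liver, fewer cells of a type and less RNA per cell cannot be told apart. Hprt and Pgk1, genes that every cell uses, were each listed at 0 in 1 FET mouse, so a value of 0 in this table can be a failed estimate.

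The summed FPKM of the 7 members was 30.8, 103 and 94.7 in the NC mice 1, 5 and 6. It was 21.1, 21.6 and 47.6 in the IVF mice 2, 3 and 4. In the FET mice 2, 3 and 4 it was 31.8, 28.2 and 13.3. NC mice 5 and 6 stood above every other mouse, and NC mouse 1 lay within the range of the IVF and FET mice, so no 2 groups were separated. These sums correspond to about 446, 2739 and 2815 fragments in the NC mice, 393, 217 and 405 in the IVF mice and 144, 178 and 87 in the FET mice. The exact 95% Poisson interval of the smallest sum was 10.7 to 16.4 FPKM and that of the largest 99.3 to 107 FPKM, which covers counting error only.

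The leading member was not the same in all mice. Ugt1a9 held 91.6% of the sum in NC mouse 1 and 41.8% in NC mouse 5, where Ugt1a1 held 35.9%, and Ugt1a1 held 76.7% in NC mouse 6. Ugt1a9 led in all 3 IVF mice, with 60.3%, 58.7% and 99.9% of the sum in mice 2, 3 and 4. No FET mouse had any FPKM on Ugt1a9: Ugt1a10 held 99.0% of the sum in mouse 2, Ugt1a1 held 65.6% and Ugt1a6a 34.4% in mouse 3, and Ugt1a1 held 97.3% in mouse 4. Within NC, Ugt1a9 thus led in mice 1 and 5 and Ugt1a1 in mouse 6. Within FET, Ugt1a10 led in mouse 2 and Ugt1a1 in mice 3 and 4. Of the 7 members, 4, 6 and 5 were above 0 in the NC mice 1, 5 and 6, 7, 5 and 2 in the IVF mice 2, 3 and 4, and 2, 2 and 3 in the FET mice 2, 3 and 4. There were 8 unprocessed pseudogenes annotated between the first and the last start of the locus in the table. Of these, 7 were above 0 in NC mouse 5, 7 in IVF mouse 2 and 2 in NC mouse 6, at 1.69 FPKM or less, and none in the other 6 mice. The 2 mice with 7 pseudogenes above 0 were also the 2 with the most members above 0; the part of this in the member counts was not tested.

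**Figure D2:**
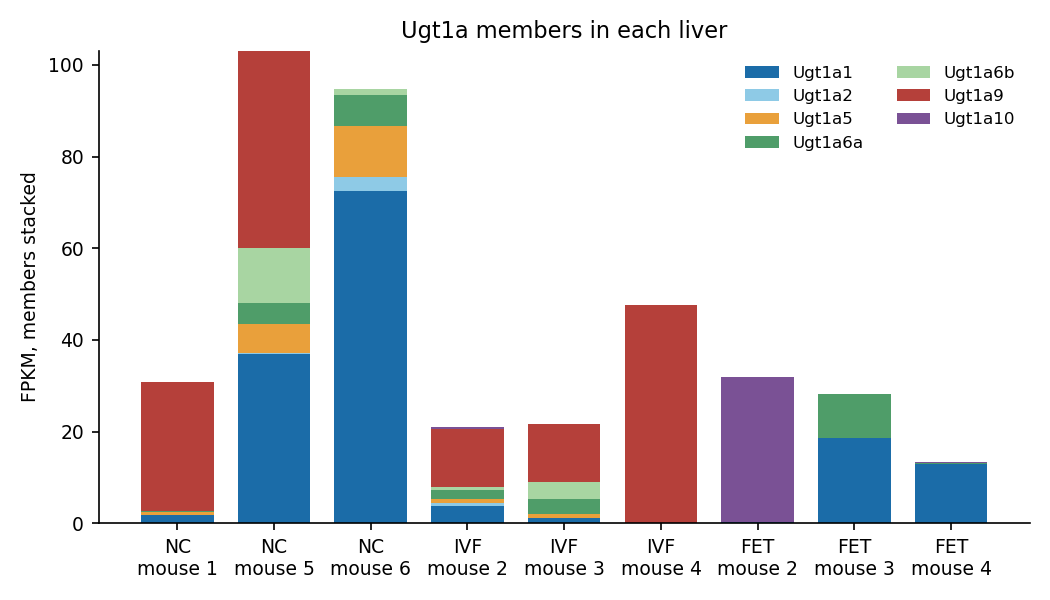
FPKM of the 7 members, stacked, in each of the 9 livers (bars, 1 per mouse, grouped by conception). The height runs from 13.3 FPKM in FET mouse 4 to 103 in NC mouse 5; red, Ugt1a9, is present in 2 NC and all 3 IVF mice and in no FET mouse.

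Ugt1a1 is the enzyme that conjugates bilirubin. It was 1.72, 37.0 and 72.6 FPKM in the NC mice 1, 5 and 6, 3.67, 1.10 and 0 in the IVF mice 2, 3 and 4, and 0.306, 18.5 and 13.0 in the FET mice 2, 3 and 4. NC mouse 1 was close to the low IVF mice, and 1 mouse of each of the other groups was near or at 0, so all 3 groups overlapped. On the log2(FPKM + 1) scale Ugt1a1 was lower by 3.20 ± 0.94 (SE) in IVF than in NC mice (3 mice a group, adjusted p = 0.40 in limma), and its FET against NC difference was -1.47 ± 0.94 (adjusted p = 0.547 in limma). Without NC mice 5 and 6 the first was -0.35 and the second turned to 1.38. When 1 mouse was left out the first ran from -4.63 to -2.25 and the second from -2.90 to -0.25. Ugt1a1 was thus not shown to differ between the groups, and it was listed at 0 in 1 IVF liver.

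Ugt1a9 belongs to the forms known for phenolic substrates. It was 28.2, 43.1 and 0 FPKM in the NC mice 1, 5 and 6, 12.7, 12.7 and 47.5 in the IVF mice 2, 3 and 4, and listed at 0 in all 3 FET mice. The last of these values chose the locus; 1 NC mouse was at 0 as well, so FET and NC overlapped. A single fragment on Ugt1a9 was worth 0.226, 0.162 and 0.155 FPKM in the FET mice 2, 3 and 4, far under the levels of the IVF mice. As a description, FET lay below IVF by -4.38 on the log2(FPKM + 1) scale, a size that the pseudocount sets because 1 group is at 0. Among the 6755 tested genes 114 (1.69%) were at 0 in all 3 FET mice, and 52 (0.770%) were in addition above 0 in all 3 IVF mice.

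Ugt1a10, whose human namesake is known as a form of the gut, was at 0 in all 3 NC mice. It was 0.436 FPKM in IVF mouse 2 and 0 in the other 2 IVF mice, and 31.5, 0 and 0.291 in the FET mice 2, 3 and 4. A single liver, FET mouse 2, thus carried nearly all of the Ugt1a10 in the series. The 7 markers of kidney or gut epithelium summed to 17.0 to 77.5 FPKM in NC, 5.04 to 46.6 in IVF and 1.51 to 20.5 in FET mice, with 1 of 7 above the filter and Umod at 0 in all mice. That 1 gene, Fabp2, made up nearly all of each sum. The highest value of any other marker of this list was 0.0987 FPKM, of Lrp2 in FET mouse 3. The 6 Kupffer cell markers, 4 above the filter, summed to 11.7 to 29.1 FPKM in NC, 4.50 to 31.4 in IVF and 11.4 to 76.6 in FET mice, the highest in FET mouse 2, where Cd5l was at 36.8 FPKM and Clec4f at 33.8. Marco at 3.65 and Adgre1 at 0.931 FPKM were also at their highest of all mice in FET mouse 2. Vsig4 at 1.36 and Cd68 at 0 FPKM were not. The part of either list in the Ugt1a10 value was not tested. Ugt1a10 is the close copy of Ugt1a9, and the 2 were never both high in 1 mouse. Added together, Ugt1a9 and Ugt1a10 came to 28.2, 43.1 and 0 FPKM in the NC mice, 13.1, 12.7 and 47.5 in the IVF mice and 31.5, 0 and 0.291 in the FET mice. The IVF and FET groups, which did not overlap for Ugt1a9, overlapped for this sum, and the FET minus IVF difference moved from -4.38 to -2.60. This pooling was chosen after the values had been seen.

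The Ugt1a6 pair acts on small planar phenols. Ugt1a6a was 0.171, 4.62 and 6.85 FPKM in the NC mice 1, 5 and 6, 1.85, 3.18 and 0.0607 in the IVF mice 2, 3 and 4, and 0, 9.69 and 0.0725 in the FET mice 2, 3 and 4. Its highest value was thus in FET mouse 3, beside 2 FET mice at or near 0, and the groups overlapped. Ugt1a6b was 0, 12.1 and 1.23 FPKM in the NC mice, 0.788, 3.74 and 0 in the IVF mice, and listed at 0 in all 3 FET mice. Because 1 mouse of each of the other groups was at 0 too, no groups were separated. Added together the pair came to 0.171, 16.7 and 8.07 FPKM in NC, 2.64, 6.92 and 0.0607 in IVF and 0, 9.69 and 0.0725 in FET mice, again with overlap of all groups.

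Ugt1a5 was 0.696, 6.31 and 11.1 FPKM in the NC mice 1, 5 and 6, 0.915, 0.924 and 0 in the IVF mice 2, 3 and 4, and listed at 0 in all 3 FET mice. Every NC mouse was above every FET mouse. Ugt1a2, its nearest copy, was 0, 0.0385 and 2.90 FPKM in the NC mice, 0.709, 0 and 0 in the IVF mice, and listed at 0 in all 3 FET mice. Its mean was under 1 FPKM over the 9 mice, the minimum for a test, so Ugt1a2 has values and no test, and 6 of 7 members were tested. In all, 4 of the 7 members (Ugt1a2, Ugt1a5, Ugt1a6b and Ugt1a9) were at 0 in the 3 FET mice, 3 of them among the 6 tested, beside 1.69% of all tested genes. Nothing is read from this count, since Ugt1a9 was chosen for these values and Ugt1a5 and Ugt1a6b reached the minimum through the NC mice.

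**Figure D3:**
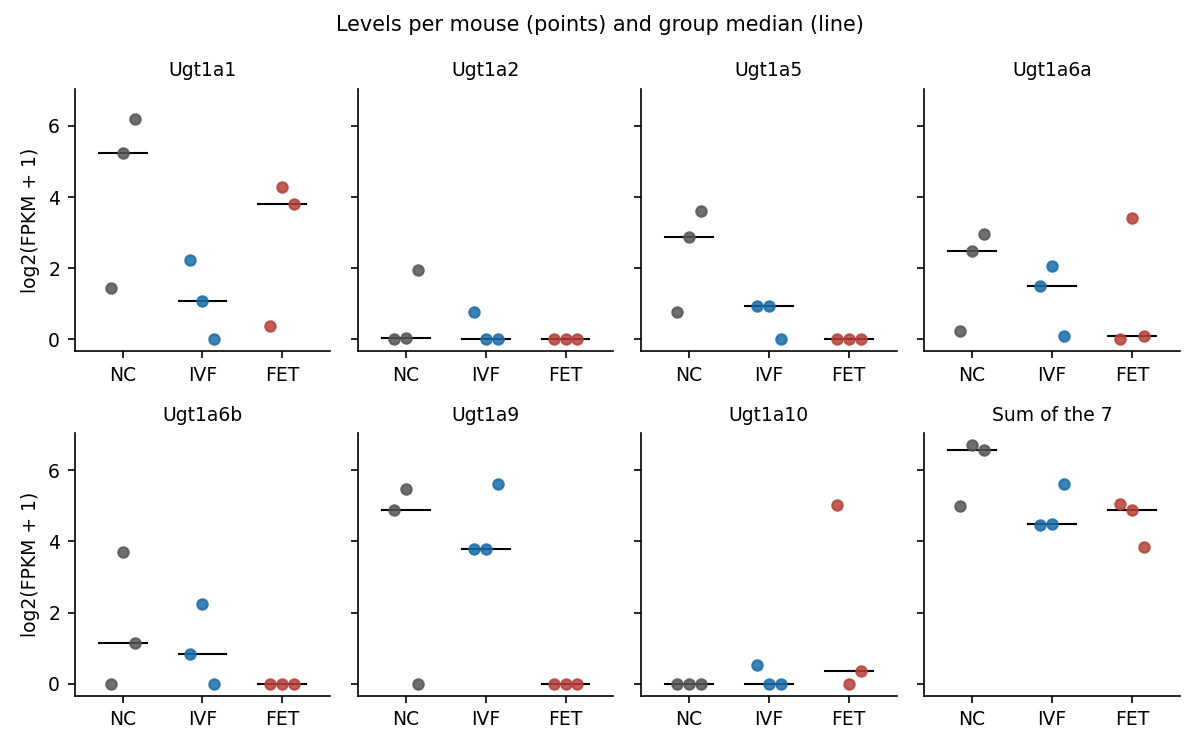
Level of each member and of the sum of the 7, as log2(FPKM + 1), in every mouse (points) with the group median (line) for NC, IVF and FET. Ugt1a2, Ugt1a5, Ugt1a6b and Ugt1a9 sit at 0 in all 3 FET mice, while the sum stays between 3.84 and 6.70 in every mouse.

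For the FET against NC comparison, which shares the FET mice with the contrast that chose the locus, limma called 0 of 6 members, where 0.237% of the 6755 genes tested were called. Only Ugt1a1, given above, and Ugt1a6a have a test free of both the choice of the locus and the minimum mean. The FET values of Ugt1a9 chose the locus, Ugt1a5 and Ugt1a6b would have missed the minimum mean without the NC mice, and Ugt1a10 would have missed it without the FET mice, so these 4 are given as a description. Their differences were -3.44 for Ugt1a9, -2.41 for Ugt1a5, -1.62 for Ugt1a6b and 1.80 for Ugt1a10, and the 3 besides Ugt1a9 had an unadjusted p under 0.05, as did 12.0% of all tested genes, from which nothing is read. The Ugt1a10 difference rested on 1 mouse and was 0.18 without FET mouse 2, and that of Ugt1a6b ran from -2.43 to -0.58 when 1 mouse was left out. In the same way Ugt1a9 ran from -5.17 to -2.43 and Ugt1a5 from -3.23 to -1.82. Without NC mice 5 and 6 Ugt1a5 was -0.76 and Ugt1a9 -4.87. Ugt1a6a differed by -0.72 ± 0.73 (SE, adjusted p = 0.739 in limma), and by -1.85 to -0.14 when 1 mouse was left out. Where a group is at 0 these sizes depend on the pseudocount, and with 0.1 in its place the Ugt1a9 difference was -5.63. A single member, Ugt1a5, was lower in every FET mouse than in any NC mouse, a pattern shown by 17.1% of all tested genes, and no member was higher in that way.

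The locus sum differed by -1.51 ± 1.01 (SE) on the log2 scale between FET and NC mice (adjusted p = 0.566 in limma, and p = 0.2 in a two-sided exact permutation test of 3 against 3 mice, whose smallest possible p is 0.1). The sum holds the Ugt1a9 values that took part in the choice of the locus, and Ugt1a9 made up 91.6% and 41.8% of it in NC mice 1 and 5, so its tests, here and for IVF against NC, are not independent of that choice. The median difference of all tested genes was -0.46 in the same comparison. With a pseudocount of 0.1 that median was -0.77 and the sum differed by -1.55. After each library was rescaled to its nuclear protein-coding genes the sum was 328, 746 and 605 per 1000000 in the NC mice 1, 5 and 6 and 348, 218 and 294 in the FET mice 2, 3 and 4. The groups still overlapped, by NC mouse 1 and FET mouse 2, and the difference was -0.91 (exact permutation p = 0.2). Without NC mice 5 and 6 the difference as deposited was -0.41, and an alternative with Ugt1a7c and Ugt1a8 in the sum gave -1.66. That wider sum was 42.4, 105 and 96.1 FPKM in NC and 31.9, 28.7 and 13.3 in FET mice, so with it every FET mouse was below every NC mouse, the pattern of 17.1% of all tested genes.

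For IVF against NC, 0 of 6 members were called by limma beside 0.0592% of all tested genes, and 2 members had an unadjusted p under 0.05, beside 4.07% of all tested genes. Those were Ugt1a1, given above, and Ugt1a5, which owes its place among the tested genes to the NC mice, so nothing is read from the count. As a description, Ugt1a5 differed by -1.78, by -0.13 without NC mice 5 and 6, and by -2.61 to -1.19 when 1 mouse was left out. Ugt1a6a differed by -0.68 ± 0.73 (SE, adjusted p = 1 in limma) and by -1.51 to -0.11 when 1 mouse was left out. The differences of Ugt1a6b and Ugt1a10 were -0.59 and 0.17, and that of Ugt1a9, whose IVF values took part in the choice of the locus, was 0.94, all 3 as a description. That of Ugt1a9 was -0.78 without NC mouse 6, the liver listed at 0. No member was lower in every IVF mouse than in any NC mouse, where 5.46% of all tested genes were. The locus sum differed by -1.24 ± 1.01 (SE, adjusted p = 1 in limma and exact permutation p = 0.2), beside a median of -0.25 over all tested genes, and by -0.14 without NC mice 5 and 6. Rescaled to nuclear protein-coding genes, the sum was 538, 198 and 207 per 1000000 in the IVF mice 2, 3 and 4. IVF mouse 2, lowest of the 9 in its share of nuclear protein-coding FPKM, moved up to the NC range on this scale.

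**Figure D4:**
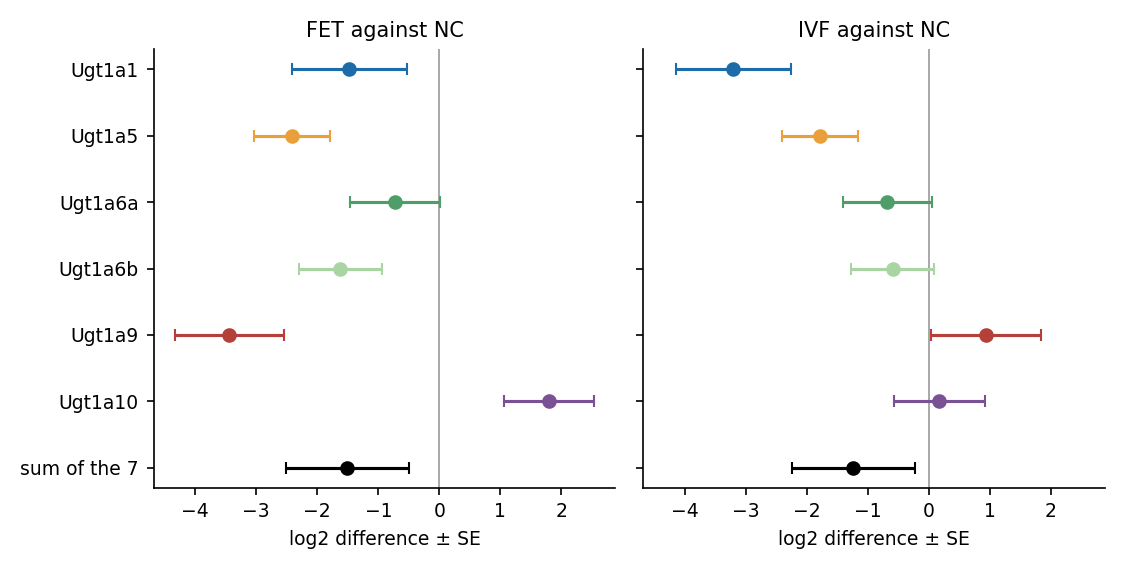
Difference of mean log2(FPKM + 1) from NC (x axis, points with standard errors from limma) for the 6 tested members and the sum of the 7, with FET on the left and IVF on the right, 3 mice a group. The FET points run from -3.44 for Ugt1a9 to 1.80 for Ugt1a10, with the sum at -1.51 between them.

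FET against IVF is the contrast that chose the locus, and both sides of it also enter the comparisons above. Of all tested genes 0.0888% passed an adjusted p of 0.05 in limma and 2.56% were lower in every FET mouse. Of the 6 tested members 1, Ugt1a9, was in each of these sets by the choice of the locus, so nothing is read from either count. The other members' differences were 1.73 for Ugt1a1, 1.62 for Ugt1a10, -1.03 for Ugt1a6b, -0.63 for Ugt1a5 and -0.05 for Ugt1a6a. Members thus lay on both sides of 0. The locus sum differed by -0.27, close to the median of -0.20 over all tested genes, by 0.01 after rescaling to nuclear protein-coding genes, by 0.10 without IVF mouse 4 or without FET mouse 4, and by -0.72 with Ugt1a7c and Ugt1a8 in the sum. The mean log2 sum was thus 4.58 in FET and 4.86 in IVF livers, while Ugt1a9 was at 0 in the first and led the sum in the second.

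**Figure D5:**
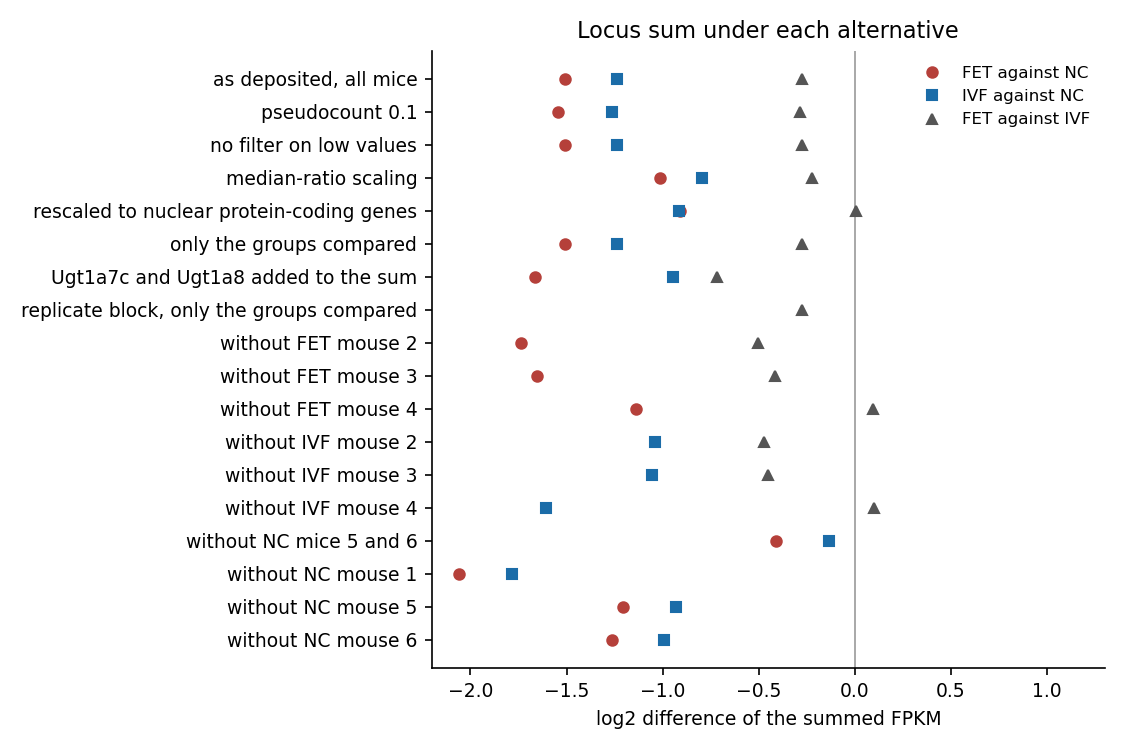
Log2 difference of the summed FPKM of the locus (x axis) as deposited and under each alternative (rows), for FET against NC (circles), IVF against NC (squares) and FET against IVF (triangles). The circles and squares stay below 0, nearest to it at -0.41 and -0.14 without NC mice 5 and 6, and the triangles lie on both sides of 0.

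The promoters are shown for the 3 members that led in some liver and for Ugt1a5, the member without overlap between NC and FET. Each is the 250 bases before the RefSeq start (GRCm38.p6), with matches to the searched motifs in capitals. The motifs were a half-site of HNF1 (GTTAAT), the core of the AhR site (GCGTG), the core of the Nrf2 site (TGACNNNGC), the TATA box (TATAAA) and a half-site of CAR and PXR (AGTTCA), on both strands.
Ugt1a1, chr1:88211709-88211958, plus strand: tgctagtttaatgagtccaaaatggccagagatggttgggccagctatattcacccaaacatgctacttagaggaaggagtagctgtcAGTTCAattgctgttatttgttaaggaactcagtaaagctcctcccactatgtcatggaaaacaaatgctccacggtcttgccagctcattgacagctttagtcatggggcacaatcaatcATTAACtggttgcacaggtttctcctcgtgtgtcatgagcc
Ugt1a9, chr1:88070529-88070778, plus strand: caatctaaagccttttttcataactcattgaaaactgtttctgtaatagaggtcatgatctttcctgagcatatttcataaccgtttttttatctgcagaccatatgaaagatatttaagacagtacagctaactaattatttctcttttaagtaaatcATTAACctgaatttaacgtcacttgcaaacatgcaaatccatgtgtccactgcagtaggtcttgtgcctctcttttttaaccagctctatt
Ugt1a10, chr1:88055161-88055410, plus strand: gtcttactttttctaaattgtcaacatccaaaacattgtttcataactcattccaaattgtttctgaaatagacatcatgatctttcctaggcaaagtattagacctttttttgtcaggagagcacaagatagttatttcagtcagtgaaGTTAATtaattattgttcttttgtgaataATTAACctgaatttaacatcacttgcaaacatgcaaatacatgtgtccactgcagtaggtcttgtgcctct
Ugt1a5, chr1:88165762-88166011, plus strand: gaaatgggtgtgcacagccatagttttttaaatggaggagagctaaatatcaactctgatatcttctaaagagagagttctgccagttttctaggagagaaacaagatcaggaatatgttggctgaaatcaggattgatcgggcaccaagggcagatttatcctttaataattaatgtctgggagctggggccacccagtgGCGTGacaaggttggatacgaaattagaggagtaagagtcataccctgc
GTTAAT was matched in Ugt1a1 (41 bases before the start), Ugt1a9 (91 bases) and, at 100 and 71 bases, Ugt1a10, and also in Ugt1a6a (50 bases), which is not printed. It was found in 6.43% of 32851 promoters of the same length. AGTTCA was matched in Ugt1a1 at 162 bases (11.8% of all promoters) and GCGTG in Ugt1a5 at 49 bases (28.2%). TGACNNNGC, in 10.2% of all promoters, and TATAAA, in 12.4%, had no match in the 6 members with an entry, and Ugt1a2 had a match to none of the 5 motifs. The 3 members that led in some liver thus all held the HNF1 letters, as did Ugt1a6a, which led in none. A match describes the letters only. Ugt1a6b had no promoter entry.

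Ugt1a7c and Ugt1a8 are further genes of the locus in the annotation and are not among the 7. Ugt1a8 was at 0 in all 9 mice. Ugt1a7c was 11.6, 1.75 and 1.42 FPKM in the NC mice 1, 5 and 6, 2.40, 13.8 and 21.4 in the IVF mice 2, 3 and 4, and 0.0639, 0.510 and 0 in the FET mice 2, 3 and 4. All 3 FET mice were below every mouse of the other groups, as for 1.82% of all tested genes, and 1 of the annotated models of Ugt1a7c uses first exons of Ugt1a6b and Ugt1a6a. Against NC the FET difference of Ugt1a7c was -1.90 ± 0.71 (SE, adjusted p = 0.269 in limma). It ran from -2.33 to -1.14 when 1 mouse was left out, the latter without NC mouse 1, and was -3.42 without NC mice 5 and 6. Apart from the members, 28 genes of the table lay within 250000 bases of the locus, of which 9 were at 0 in all mice and 3, Ugt1a7c, Hjurp and Spp2, had a mean of at least 1 FPKM. Hjurp, a chaperone of the centromeric histone, was 4.65, 16.3 and 14.7 FPKM in NC, 1.56, 1.11 and 4.76 in IVF and 1.87, 2.76 and 0.982 in FET mice (FET against NC -2.05 ± 0.70, adjusted p = 0.222 in limma). Like the locus sum, Hjurp was highest in NC mice 5 and 6. Spp2, a secreted phosphoprotein of liver, was 24.1, 48.0 and 61.2 FPKM in NC, 5.35, 19.9 and 85.4 in IVF and 13.9, 24.8 and 10.8 in FET mice (-1.36 ± 1.01, adjusted p = 0.622 in limma).

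None of the 5 lists of genes around glucuronidation had a called member in any of the comparisons. The medians given for the lists hold for a pseudocount of 1. With 0.1 the FET against NC median over all tested genes was -0.77, and list medians were not taken on that scale. The other UGT genes, of the UGT2, UGT3 and UGT8 families, had 10 of 13 tested; in FET against NC 9 were below 0, with a median of -0.93 beside -0.46 over all tested genes, and 1 had an unadjusted p under 0.05 (12.0% of all tested genes did). Ugt2b5 was at 102, 98.7 and 133 FPKM in NC, 40.8, 128 and 291 in IVF and 114, 197 and 56.7 in FET mice, so this UGT2 gene alone reached or exceeded the whole Ugt1a sum in 8 of 9 livers. Its FET against NC difference was -0.02 ± 1.09 (adjusted p = 0.995 in limma), and it turned above 0 under both rescalings (0.48 and 0.61). Ugt2b36 differed by -1.28 ± 1.06 (adjusted p = 0.671) and Ugt2b1 by -1.28 ± 1.01 (adjusted p = 0.648).

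The list named for UDP-glucuronic acid supply and removal also held the carboxylesterase genes Ces1d and Ces3a, whose part in either was not examined. With them it had 9 of 10 tested and 8 below 0. The median was -1.07 and 1 unadjusted p was under 0.05, beside the same 12.0%. Ugp2, which makes UDP-glucose, differed by -1.07 ± 0.92 (adjusted p = 0.685 in limma), and the carboxylesterase genes Ces1d and Ces3a by -1.54 ± 0.98 (adjusted p = 0.547) and -0.21 ± 1.08 (adjusted p = 0.960). Ces3a turned to 0.30 and 0.43 under the rescalings. Of the 11 genes of haem breakdown and bilirubin handling, all tested, 8 were below 0 with a median of -0.64, and 4 had an unadjusted p under 0.05 beside 12.0% of all tested genes. Blvrb, a biliverdin reductase, differed by 0.12 ± 1.0 (adjusted p = 0.973), and the uptake transporters Slco1a1 and Slco1b2 by -0.64 ± 0.83 (adjusted p = 0.803) and -1.81 ± 0.96 (adjusted p = 0.453).

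Of the factors known to act on UGT1A promoters 13 of 15 were tested, 11 below 0 with a median of -0.77, and 4 had an unadjusted p under 0.05 beside 12.0% of all tested genes. Nr1i3, which encodes CAR, differed by 0.08 ± 0.97 (adjusted p = 0.981 in limma), Hnf4a, a hepatocyte nuclear factor, by -0.77 ± 0.95 (adjusted p = 0.789) and Nr1h4, the bile acid receptor FXR, by 0.32 ± 1.05 (adjusted p = 0.931). Nfe2l2, which encodes Nrf2, was 13.5, 35.1 and 37.7 FPKM in NC, 1.85, 4.49 and 10.8 in IVF and 3.74, 2.65 and 0.364 in FET mice, and its difference was -3.25 ± 0.80 (adjusted p = 0.0519 in limma, and from 0.0281 to 1 over 12 alternatives, of which 4 passed). Every NC mouse was above every mouse of the other groups, as for 2.74% of all tested genes. Of the known targets of CAR, PXR, AhR, Nrf2 and PPARa 15 of 22 were tested, 13 below 0 with a median of -1.35, and 8 had an unadjusted p under 0.05 beside 12.0% of all tested genes. Cyp4a14, a target of PPARa, was 3.89, 1.82 and 9.37 FPKM in NC, 0.665, 0.585 and 0.713 in IVF and 0 in all 3 FET mice, a difference of -2.39 given as a description because only the NC mice carried it over the minimum mean. Of the 18 genes of the 5 lists with an unadjusted p under 0.05, 4 would have missed that minimum without the NC mice, 3 of them among these targets, as would 24.4% of the 812 such genes over all tested. Nfe2l2 and Cyp4a14 were picked after their values had been seen. The most abundant targets, Cyp3a11, Cyp1a2 and Gstm1, differed by -1.0 ± 1.06 (adjusted p = 0.753), -1.04 ± 1.08 (adjusted p = 0.748) and -0.89 ± 1.08 (adjusted p = 0.784). After rescaling to nuclear protein-coding genes these differences were -0.38, -0.41 and -0.25.

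For IVF against NC the medians were -0.09 for the other UGT genes and -0.34 for the supply and removal list with its carboxylesterases. They were -0.67 for haem and bilirubin, -0.12 for the promoter factors and -0.66 for the targets, beside -0.25 over all tested genes.

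The genes most alike to the locus sum over the 9 mice, by Pearson's r of log2(FPKM + 1) among 6748 other tested genes, were Stx16 (r = 0.984), Zfp395 (0.984), Erbb3 (0.982), Coq2 (0.971) and Miga2 (0.970). Stx16 was 2.55, 10.5 and 14.2 FPKM in NC, 0.751, 1.14 and 4.98 in IVF and 1.78, 1.37 and 0.255 in FET mice. It thus shared with the locus sum the high values of NC mice 5 and 6, the lead of mouse 4 among the IVF mice and the low value of FET mouse 4. These are descriptions over mice that share group, depth and library, with no test.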

How the data were processed

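Liver RNA of 9 mice was sequenced, 3 in each of 3 groups taken from the labels (NC, IVF and FET). The authors deposited 1 table of FPKM values for 55335 genes, 1 column per mouse, not pooled. Per the study's methods reads were trimmed and mapped to the genome. The submitters' processing notes name FastQC 0.11.5, STAR 2.5.3a, StringTie 1.3.1c and DESeq2 1.16.1 without roles. The genome build, the annotation, the strand setting and the rule by which fragments of exons held in common were divided among genes are not given in the sources used here. A rule that assigns such fragments to 1 model can move FPKM between members.

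Identifiers were matched to GENCODE vM21 (GRCm38; 55154 of 55335). Levels were tested as log2(FPKM + 1) for the 6755 genes averaging at least 1 FPKM across the mice, all groups in 1 fit, with limma 3.58.1 (R 4.3.3, variance trend, two-sided, Benjamini-Hochberg adjusted p). The sum of the members entered the same fit in their place, and was also tested by an exact permutation test (scipy 1.17.1). Limma takes the spread behind its standard errors and p-values partly from genes of like level. They therefore do not measure the spread of a single gene between these mice alone. The permutation test uses only the sums of the mice compared. The depth estimate and the limma fit were tested on simulated data. Mapped fragments were estimated from the steps that whole fragments leave in low FPKM values (39.3% to 52.3% of such values lay on a step within 2%, against 9.5% to 16.0% by chance), so fragment numbers are approximate. Members, gene lists and tests were chosen with earlier results of these data known. Named were the 7 members, from each list the called genes and the 3 of highest mean FPKM, neighbours averaging at least 1 FPKM, and the 5 genes most alike to the locus sum; those most alike to its most abundant member are not reported here.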

Additional observations from a re-analysis of the deposited data

How the results depend on the processing

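The locus sum kept its direction in every alternative for FET against NC and for IVF against NC, and never passed the threshold. Leaving out 1 mouse gave -2.06 to -1.14 and -1.78 to -0.93. For FET against IVF the sum ran from -0.50 to 0.10 when 1 mouse was left out. Without NC mice 5 and 6, an alternative chosen after seeing the data like the addition of Ugt1a7c and Ugt1a8 to the sum, Ugt1a1 (1.38), Ugt1a6a (0.95) and Ugt1a6b (0, both groups at 0) no longer lay below 0 in FET against NC, and Ugt1a6a (0.99), Ugt1a6b (1.03) and Ugt1a9 (-0.48) turned in IVF against NC. There and in the gene counts given for this alternative, the single NC mouse left is assumed to vary like the other groups. In the latter, leaving out 1 mouse gave -1.40 to 0.45 for Ugt1a6b (0.45 without NC mouse 5), -0.78 to 1.95 for Ugt1a9 (-0.78 without NC mouse 6) and 0 to 0.26 for Ugt1a10 (0 without IVF mouse 2). Members called in FET against NC were 0 to 2 when 1 mouse was left out: Ugt1a5 without NC mouse 1, Ugt1a9 without NC mouse 6, the only NC mouse where it was at 0, and both without FET mouse 2. In FET against IVF the count was 0 or 1 when 1 mouse was left out, and 0 without the filter, with median-ratio scaling, nuclear protein-coding rescaling, only the compared groups, or the replicate block; Ugt1a9, whose FET values chose the locus, is the member counted here and 1 of the 2 in FET against NC, where the other, Ugt1a5, reached the minimum mean only through the NC mice, so these counts are a description and no sign of stability.

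Over all genes, 16 were called in FET against NC, 0 with no filter or only the groups compared, 42 with nuclear protein-coding rescaling, which tests 16104 genes (0.261% called, beside 0.237%), 6 without NC mice 5 and 6, and 1 to 83 when 1 mouse was left out (83 without NC mouse 1, 57 without FET mouse 2, 1 without FET mouse 3). In IVF against NC 4 became 0 with a pseudocount of 0.1, no filter, either rescaling or only the compared groups, 2 without NC mice 5 and 6, and 0 to 24 when 1 mouse was left out. In FET against IVF 6 became 0 with no filter or only the compared groups, 11 with nuclear protein-coding rescaling (0.0683%, beside 0.0888%), 2 with the replicate block, and 0 to 10 when 1 mouse was left out. The causes were not tested. Median-ratio scaling moved the median of all tested genes in FET against NC from -0.46 to -0.11.

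Among the list genes of FET against NC, Ugt2b5 turned to 0.48 and Ces3a to 0.30 with median-ratio scaling, and to 0.61 and 0.43 with nuclear protein-coding rescaling. In the latter Ugt2b1 was -0.69, Ugt2b36 -0.66, Ugp2 -0.50, Ces1d -0.97, Slco1b2 -1.26, Slco1a1 -0.06 and Hnf4a -0.17. Blvrb was 0.76, Nr1i3 0.71 and Nr1h4 1.01 on that scale. Without NC mice 5 and 6, Ugt2b5 (0.089), Ces3a (0.73) and Slco1a1 (0.59) turned above 0. Leaving out 1 mouse gave -0.45 to 0.44 for Ugt2b5, -0.68 to 0.10 for Ces3a, -0.38 to 0.58 for Blvrb, -0.50 to 0.82 for Nr1i3 and -0.75 to 0.88 for Nr1h4. The numbers 2, 3 and 4 occur in both the IVF and the FET labels. Deviations from the group mean correlated by -0.13, 0.02 and -0.26 between same-numbered mice across 6755 genes. Between mice of other numbers the correlations ran from -0.14 to 0.29. So few correlations of values centred within groups can neither show nor exclude that the numbers pair the mice. The replicate block left the sum at -0.27. Shares of the sum moved by at most 0.99 percentage points when taken over fragments in place of FPKM.

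The FET libraries were the shallowest, with 87 to 178 fragments on the locus, and 3 mice a group allow no exact p under 0.1. The division among members rests on the own part of each transcript.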
